A study of Zea mays with 12 samples.

Results

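In whole maize endosperm, 43 of 34348 measured genes stood well below wild type in libraries labelled nkd1-Ds while their mean in nkd2-Ds libraries stayed close to wild type. They were chosen from the values themselves, in RPKM (reads scaled to gene length and library size). A gene entered when its lowest wild-type value was at least 5 RPKM, its highest nkd1-Ds value was at most 0.5 times that lowest value, and its mean in nkd2-Ds was no more than 20% below and 25% above the wild-type mean. Of 12133 genes that met the wild-type floor, 371 met the nkd1-Ds limit. In nkd2-Ds, 304 of these 371 had a mean below the window, 23 had a mean above it and 44 were inside. From the 44, 1 gene (an1, GRMZM2G081554) was set aside by the rule. Because all 3 groups were used to choose the genes, the differences that defined them are given as descriptions, with no test.

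The tissue was endosperm at 16 days after pollination from field-grown, selfed plants of the W22 inbred line. Each of 3 genotypes had 4 libraries, which the series calls biological replicates. Beside wild type (WT) these were nkd1-Ds and nkd2-Ds, each labelled a single mutant, and Ds is a transposable element of maize. The sources used here do not say how many kernels or ears entered a library. All groups shared the W22 background.

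The nkd1 and nkd2 genes (naked endosperm) are duplicates. Their products are zinc finger proteins with an INDETERMINATE domain, which bind DNA and regulate transcription. They act in formation of the aleurone, the outer cell layer of the endosperm, and in maturation of the starchy endosperm beneath it. Transcripts of both genes were measured in all libraries. The nkd1 transcript (GRMZM2G129261) had a WT level of 49.2 ± 3.41 RPKM, against 12.8 ± 1.08 in the nkd1-Ds set and 35.1 ± 1.57 in the nkd2-Ds set (means and SDs of 4 libraries, here and throughout). The nkd2 transcript (GRMZM5G884137) had a WT level of 19.5 ± 0.762 RPKM, against 1.1 ± 0.078 and 1.14 ± 0.141 in the same order. The libraries labelled nkd1-Ds therefore carried low levels of both transcripts, with nkd1 at 26.0% and nkd2 at 5.65% of the WT mean. Those labelled nkd2-Ds carried nkd2 at 5.87% and nkd1 at 71.4% of it. Why nkd2 was also low in the first set, labelled a single mutant, was not tested. That set is therefore called the libraries labelled nkd1-Ds here. Each direction given for nkd1-Ds below is a direction in those libraries.

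The word lost would overstate the levels. None of the 43 genes was at 0 in any library labelled nkd1-Ds, and the remaining level ran from 3.76% to 45.1% of the WT mean with a median of 32.4%. It was under 20% for 7 genes, from 20% to under 40% for 29 and at least 40% for 7. In fold terms the WT mean was 2.22 to 26.6 times the nkd1-Ds mean, with a median of 3.09. In nkd2-Ds the mean ran from 82.2% to 124% of WT with a median of 98.0%. All 43 genes were lower in nkd1-Ds than in WT by limma at an adjusted p under 0.05, where 29.2% of the 26706 genes tested were lower. All 43 had every nkd1-Ds value below every WT value, as had 26.6% of the genes tested. Both counts follow from the choice of the genes.

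**Figure D1:**
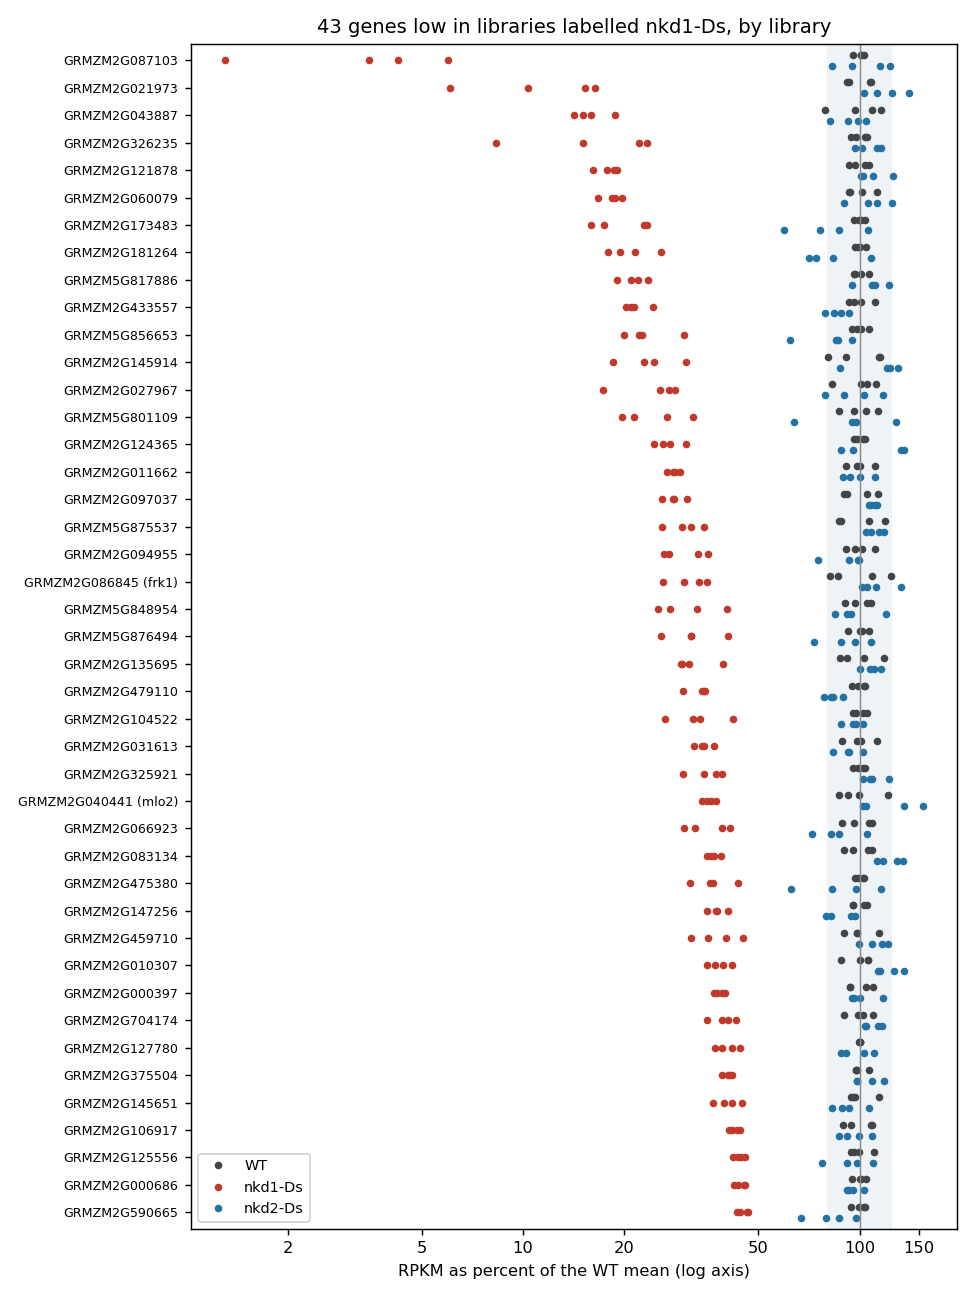
RPKM of each of the 43 genes in each library as a percent of the gene's WT mean, on a log axis, with genes ordered by their nkd1-Ds mean. Each point is 1 library, and the shaded band marks 20% below to 25% above the WT mean, the window applied to nkd2-Ds means. All nkd1-Ds points lie to the left of all other points of the same gene.

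**Figure D2:**
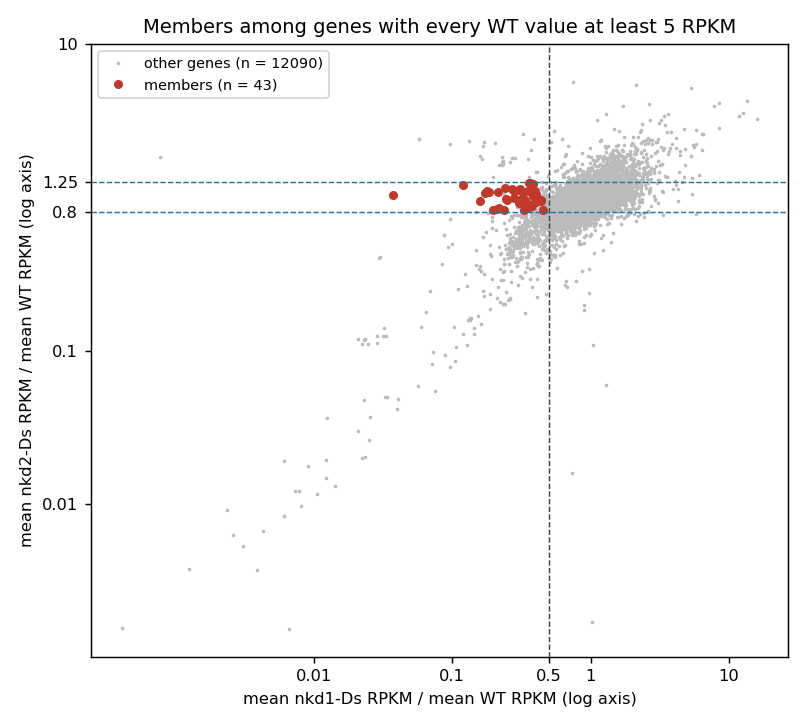
Mean nkd2-Ds RPKM over mean WT RPKM against mean nkd1-Ds RPKM over mean WT RPKM, both on log axes, for the 12133 genes with every WT value at least 5 RPKM. Red points are the 43 chosen genes, and dashed lines mark the limits of the rule, at 0.5 for nkd1-Ds and at 20% below and 25% above WT for nkd2-Ds. The limit at 0.5 was applied to the highest nkd1-Ds and the lowest WT library, so some grey points to its left did not meet it.

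Most of these genes were of modest level. The WT mean ran from 5.80 to 113 RPKM with a median of 10.1 RPKM: 21 genes were under 10 RPKM, 15 between 10 and 20, 4 between 20 and 50, and 3 over 50. Names were few. RefSeq's maize gene table (B73, NAM-5.0) matched 22 of the 43 identifiers, and for 20 of the 22 it gives a locus number with no gene symbol. Only frk1 and mlo2 carry symbols. The other genes are described below by identifier and level alone, without a function.

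The deepest drop was at GRMZM2G087103. Its RPKM was 17.0, 16.7, 16.6 and 15.8 in WT, 0.703, 0.992, 0.579 and 0.216 in nkd1-Ds, and 15.7, 20.3, 13.6 and 19.0 in nkd2-Ds. The nkd1-Ds mean was 3.76% of WT and rested on 12 to 57 reads a library, against 679 to 775 reads in WT. The nkd2-Ds values lay on both sides of the narrow WT range, and the lowest of them was 13.8 times the highest nkd1-Ds value.

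GRMZM2G021973 followed, a gene of 378 bases. It gave 18.6, 15.7, 16.0 and 18.4 RPKM in WT, 1.77, 2.82, 1.04 and 2.63 in nkd1-Ds, and 24.1, 19.3, 21.4 and 17.6 in nkd2-Ds. Its nkd1-Ds mean was 12.03% of WT, from 16 to 41 reads a library. The nkd2-Ds mean was 120% of WT, with only the lowest nkd2-Ds value inside the WT range.

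GRMZM2G043887 gave 37.0, 39.3, 32.9 and 26.8 RPKM in WT, 4.82, 5.11, 5.41 and 6.37 in nkd1-Ds, and 31.4, 33.6, 35.4 and 27.7 in nkd2-Ds. Every nkd2-Ds value fell inside the WT range, and the nkd1-Ds values, at 16.0% of WT on average, were all far below it. The same placing, with 4 nkd2-Ds values inside the WT range, was seen at 4 of the 43 genes, the others being GRMZM2G097037, GRMZM5G875537 and GRMZM2G135695. No share over all genes was counted for this placing, so the count is not a result about these genes.

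Between 17% and 20% of WT in nkd1-Ds stood 4 more genes. GRMZM2G326235 was at 6.28, 6.37, 5.69 and 5.89 RPKM in WT, 1.42, 1.34, 0.504 and 0.915 in nkd1-Ds, and 5.87, 6.81, 7.01 and 6.16 in nkd2-Ds. GRMZM2G121878 was at 8.96, 8.72, 8.12 and 7.82 in WT, 1.60, 1.36, 1.5 and 1.57 in nkd1-Ds, and 8.62, 10.5, 8.47 and 9.20 in nkd2-Ds. The nkd1-Ds values of the first spread over a 2.81-fold range, on 21 to 53 reads, and those of the second over a 1.17-fold range on 133 to 154 reads. GRMZM2G060079 was at 18.8, 15.7, 17.0 and 15.5 in WT, 3.15, 2.79, 3.08 and 3.30 in nkd1-Ds, and 15.03, 18.8, 17.7 and 20.9 in nkd2-Ds. GRMZM2G173483 was at 18.4, 17.1, 17.9 and 17.7 in WT, 3.09, 4.15, 2.83 and 4.06 in nkd1-Ds, and 18.8, 13.6, 15.4 and 10.6 in nkd2-Ds. In nkd2-Ds it had 1 library above the WT range and 3 below it, so its mean of 82.2% of WT came from values that differed 1.78-fold among themselves.

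Among the abundant genes, GRMZM5G817886 was the highest in WT. It gave 114, 121, 109 and 110 RPKM in WT, 26.6, 21.6, 24.9 and 23.8 in nkd1-Ds, and 107, 123, 138 and 126 in nkd2-Ds. Its nkd1-Ds mean of 24.2 ± 2.09 RPKM was 21.4% of WT, on at least 2017 reads in each library. The nkd2-Ds values began just below the WT range and ended above it.

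GRMZM2G375504 gave 60.7, 61.5, 61.1 and 66.7 RPKM in WT, 26.1, 24.4, 25.7 and 25.3 in nkd1-Ds, and 67.9, 73.8, 61.3 and 61.4 in nkd2-Ds. GRMZM2G011662 gave 62.5, 69.4, 61.4 and 56.7 in WT, 16.8, 17.7, 18.3 and 17.5 in nkd1-Ds, and 62.7, 58.5, 69.5 and 55.7 in nkd2-Ds. Both had tight nkd1-Ds values and nkd2-Ds values that overlapped WT, but the first kept 40.6% and the second 28.1% of the WT mean in nkd1-Ds.

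**Figure D3:**
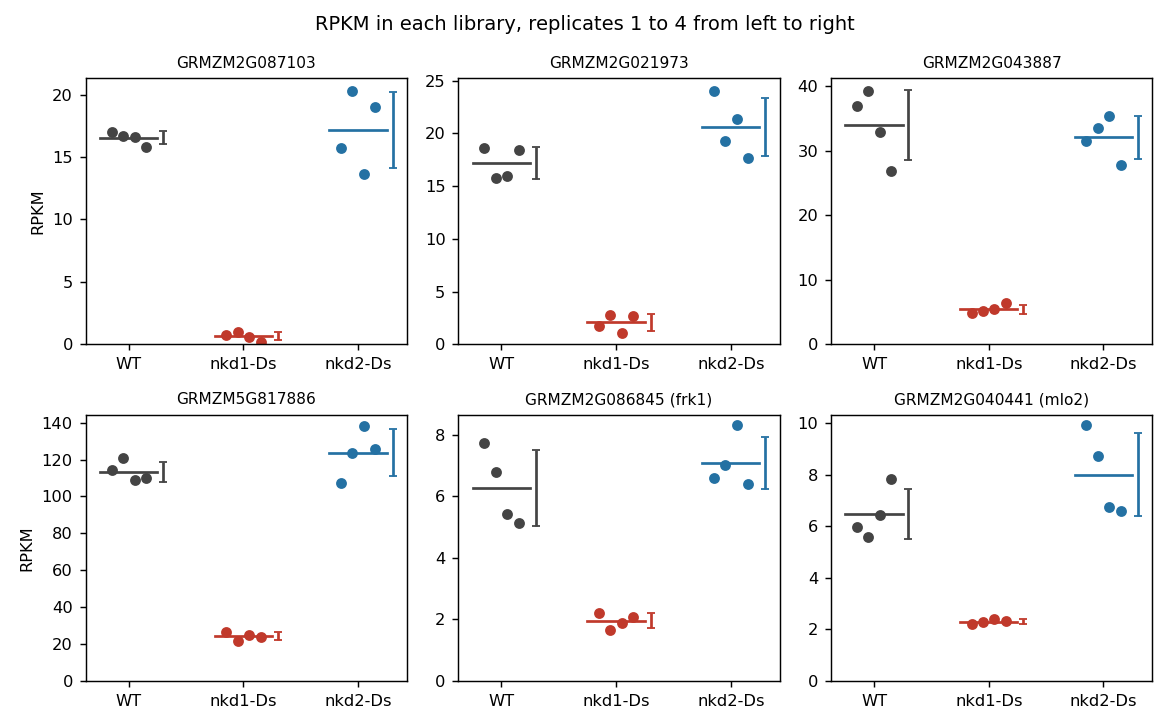
RPKM in each library for GRMZM2G087103, GRMZM2G021973, GRMZM2G043887, GRMZM5G817886, frk1 and mlo2, with 1 panel per gene and the linear axis starting at 0. Points are libraries, horizontal lines are group means and bars show 1 SD either side (n = 4). In every panel the nkd1-Ds points lie below all WT and nkd2-Ds points.

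The other genes at the top of either ranking had means between these. GRMZM5G856653 had a WT mean of 22.5 ± 1.09 RPKM, with 5.32 ± 0.999 for nkd1-Ds and 18.5 ± 3.17 for nkd2-Ds. GRMZM2G325921 was at 25.9 ± 0.932, 9.13 ± 1.03 and 28.6 ± 2.19 in the same order, and GRMZM5G875537 at 16.7 ± 2.59, 5.08 ± 0.598 and 18.5 ± 1.04. GRMZM2G433557 kept 21.7% and GRMZM2G181264 21.1% of their WT means of 9.81 ± 0.781 and 9.41 ± 0.315 RPKM. These last 2 genes were at 85.8% and 84.0% of WT in nkd2-Ds, near the lower edge of the window.

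The nkd2-Ds libraries were placed loosely around WT gene by gene. The nkd2-Ds mean was above the WT mean for 20 genes and below it for 23, and 24 lay within 10% of it. For 40 genes the nkd2-Ds and WT values overlapped. In 2 genes (GRMZM2G010307 and GRMZM2G083134) all nkd2-Ds values were above all WT values, and in 1 gene (GRMZM2G479110) all were below, where 26.4% of all genes tested had groups that did not overlap in either direction. The same 3 genes were the ones limma called between nkd2-Ds and WT at an adjusted p under 0.05, against 25.5% of all genes tested. The rule held the nkd2-Ds mean near WT, so neither count is a result about these genes. GRMZM2G010307 and GRMZM2G083134 may also not be separate measurements, as described below. All 43 genes had every nkd2-Ds value above every nkd1-Ds value, as had 19.5% of all genes tested. The limits of the rule on both groups favour this, so it is not a result about these genes either.

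GRMZM2G479110 gave 7.66, 7.30, 7.0 and 7.63 RPKM in WT, 2.56, 2.52, 2.21 and 2.56 in nkd1-Ds, and 5.81, 6.15, 6.60 and 6.08 in nkd2-Ds. The highest nkd2-Ds value thus lay just under the lowest WT value, and the nkd1-Ds values lay far under both.

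Spread within nkd2-Ds was often larger than within WT. The fold range over the 4 libraries was wider in nkd2-Ds for 32 of the 43 genes. The share over all genes was not counted. The rule used the lowest WT value but only the mean of nkd2-Ds, so this count is not a result about these genes. The median coefficient of variation of the 43 genes was 8.05% in WT, against 9.51% for nkd1-Ds and 10.3% for nkd2-Ds. The medians over the 12133 genes above the same WT floor followed the same order, at 7.53%, 7.95% and 8.61%. A nkd2-Ds range above 1.5-fold, a limit set after the values were seen, occurred in 7 genes, with no share over all genes counted. GRMZM5G801109 had the widest, with 7.77, 5.75, 5.93 and 3.86 RPKM in nkd2-Ds against 6.32, 6.90, 5.26 and 5.82 in WT. GRMZM2G475380 had 5.86, 7.77, 10.9 and 9.15 in nkd2-Ds against 9.65, 9.58, 9.26 and 9.08 in WT. For both genes the nkd2-Ds libraries lay on either side of WT, and of all 43 GRMZM2G475380 came closest to overlap with nkd1-Ds, its highest nkd1-Ds value being 69.9% of its lowest nkd2-Ds value.

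A pattern within WT was noticed after the values were seen. WT replicate 1 was the highest of the 4 WT libraries for 20 of the 43 genes (46.5%), against 21.7% of the 12133 genes above the floor. It was the lowest for 14.0% against 32.1%, and WT replicate 2 was the lowest for 37.2% against 17.1%. The rule used the lowest WT value, and genes are not replicates of a library, so no result is drawn from these shares.

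Of the 2 genes with symbols, frk1 (GRMZM2G086845) codes for a fructokinase, which phosphorylates the fructose released when sucrose is split. It gave 7.75, 6.81, 5.42 and 5.13 RPKM in WT, 2.21, 1.64, 1.89 and 2.09 in nkd1-Ds, and 6.62, 7.03, 8.31 and 6.4 in nkd2-Ds. The nkd1-Ds mean was 31.2% of WT and the nkd2-Ds mean 113%, with 3 of the nkd2-Ds values inside the WT range. Other genes of sucrose and hexose use were set beside it: sucrose synthases, which split sucrose to fructose and UDP-glucose, invertases, which split it to fructose and glucose, and kinases of the hexoses. Of 9 such genes measured, 6 passed the expression filter of a mean of at least 1 RPKM in a group. In nkd1-Ds with WT, 0 of the 6 were higher and 4 were lower by limma's adjusted p, against 26.5% and 29.2% of all genes tested, and their median log2 difference was -0.55 against -0.02 over all genes tested. In nkd2-Ds with WT, 1 was higher and 2 were lower, where 25.5% of all genes were called in either direction, and the median was -0.44 against -0.01.

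The sucrose synthase sus2 moved in opposite directions in the 2 mutants. From 27.3 ± 2.38 RPKM in WT it went to 6.26 ± 1.08 with nkd1-Ds and to 46.3 ± 7.03 with nkd2-Ds, a log2 difference from WT of -1.97 ± 0.12 (SE, limma adjusted p = 3.66e-08) and of 0.73 ± 0.12 (limma adjusted p = 0.000687). The synthase sus1 fell in nkd1-Ds from 123 ± 15.7 to 43.9 ± 10.8 RPKM, a log2 difference of -1.49 ± 0.20 (limma adjusted p = 3.66e-05). In nkd2-Ds it was 80.2 ± 21.3 RPKM (log2 difference -0.65 ± 0.20, limma adjusted p = 0.0301), a call lost without WT replicate 1, 3 or 4 or nkd2-Ds replicate 1, at adjusted p up to 0.0767, and also lost with equal total reads, with quantile normalization, with voom and with a replicate block. Both synthases were left out of the 43 genes by the rule, and neither met its nkd2-Ds window.

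The endosperm sucrose synthase sh1 had 3299 ± 367 RPKM in WT and was lower in both mutants, with 2047 ± 224 for nkd1-Ds and 1724 ± 189 for nkd2-Ds (limma adjusted p = 0.000453 and 0.000118). The hexokinase gene hex2 was lower in nkd1-Ds, at 2.77 ± 0.0823 against 4.01 ± 0.206 RPKM (limma adjusted p = 0.00109). With values scaled to equal total reads, neither call held in nkd1-Ds (adjusted p of 0.223 and 0.949), the call of sh1 was also lost with quantile normalization (adjusted p of 0.0688), and the log2 difference of hex2 turned to 0.01. The second fructokinase gene, frk2, had 27.4, 22.2, 18.1 and 18.1 RPKM in WT, 22.1, 14.2, 14.1 and 16.1 in nkd1-Ds, and 13.5, 14.4, 21.8 and 23.7 in nkd2-Ds. These groups overlapped, and its log2 difference between nkd1-Ds and WT was -0.35 ± 0.19 (limma adjusted p = 0.144), which passed only without nkd1-Ds replicate 1. Whether frk1 and frk2 differed in response was not tested, as frk1 had been chosen for its values.

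The other symbol, mlo2 (GRMZM2G040441), belongs to the MLO family of plant membrane proteins, whose founding member in barley is known for its part in susceptibility to powdery mildew. It gave 5.98, 5.6, 6.44 and 7.83 RPKM in WT, 2.2, 2.27, 2.41 and 2.34 in nkd1-Ds, and 9.93, 8.72, 6.75 and 6.61 in nkd2-Ds. The nkd1-Ds values were tight, at 35.6% of WT on average, while 2 of the nkd2-Ds libraries were above the WT range. At 124% of WT its nkd2-Ds mean was the nearest to the upper edge of the window. Of 6 other MLO genes measured, 4 passed the filter, and of these 2 were higher and 1 lower in nkd1-Ds, against 26.5% and 29.2% of all genes tested, while 1 was higher and 0 lower in nkd2-Ds. Their median log2 difference from WT was 0.24 in nkd1-Ds and -0.07 in nkd2-Ds.

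By the authors' scaling the called MLO genes differed in direction in nkd1-Ds, which rested on mlo6. With equal total reads 3 of the 4 were called higher and 0 lower, where 16967 of 27943 genes tested were higher and 2099 lower. In nkd1-Ds mlo8 rose from 1.81 ± 0.183 to 3.89 ± 0.186 RPKM (log2 difference 0.80 ± 0.08, limma adjusted p = 3.19e-06), with all 4 nkd1-Ds values above all WT values. The gene mlo6 was at 4.34 ± 0.302 RPKM in nkd1-Ds against 5.76 ± 0.308 in WT (log2 difference -0.34 ± 0.07, limma adjusted p = 0.00112), a difference that turned to 0.12 with equal total reads. The gene mlo4 rose in nkd2-Ds from 1.68 ± 0.257 to 3.11 ± 0.750 RPKM (log2 difference 0.60 ± 0.13, limma adjusted p = 0.00402). In nkd1-Ds it was at 2.37 ± 0.233 RPKM (limma adjusted p = 0.0433), a call lost without WT replicate 2 or 3 or when any single nkd1-Ds library was left out, at adjusted p up to 0.105.

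Among the genes without a name, 1 pair gave nearly equal values. GRMZM2G010307 and GRMZM2G083134 had the same length of 723 bases, and their values differed by at most 0.11 on the log2 scale over the 12 libraries. No other member had a partner of equal length within 0.5 on that scale, a limit set after the values were seen. GRMZM2G010307 gave 8.84, 7.38, 8.40 and 8.84 RPKM in WT, 2.94, 3.48, 3.11 and 3.27 in nkd1-Ds, and 9.49, 10.5, 9.60 and 11.3 in nkd2-Ds. GRMZM2G083134 gave 9.08, 7.51, 7.99 and 8.80 in WT, 3.02, 3.23, 2.94 and 3.09 in nkd1-Ds, and 9.78, 10.8, 9.40 and 11.2 in nkd2-Ds. Their levels are uncertain as separate measurements, since counting may not have told their reads apart. No sequence was used here, so whether they are near-identical copies was not tested.

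A second case was GRMZM2G124365. RefSeq places it at 2 loci that also both carry the identifier GRMZM2G116087. GRMZM2G124365 gave 38.8, 41.0, 40.3 and 37.9 RPKM in WT, 10.7, 10.3, 9.65 and 12.05 in nkd1-Ds, and 52.2, 53.2, 37.6 and 34.6 in nkd2-Ds. GRMZM2G116087 had a WT mean of 22.7 ± 0.797 RPKM, with 10.2 ± 0.953 for nkd1-Ds and 24.99 ± 3.96 for nkd2-Ds. Replicates 1 and 2 of nkd2-Ds were the high ones for both. GRMZM2G116087 missed the rule because its highest nkd1-Ds value, 11.3 RPKM, was more than 0.5 times its lowest WT value of 21.9 RPKM. Reads of this pair may likewise not have been told apart.

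**Figure D4:**
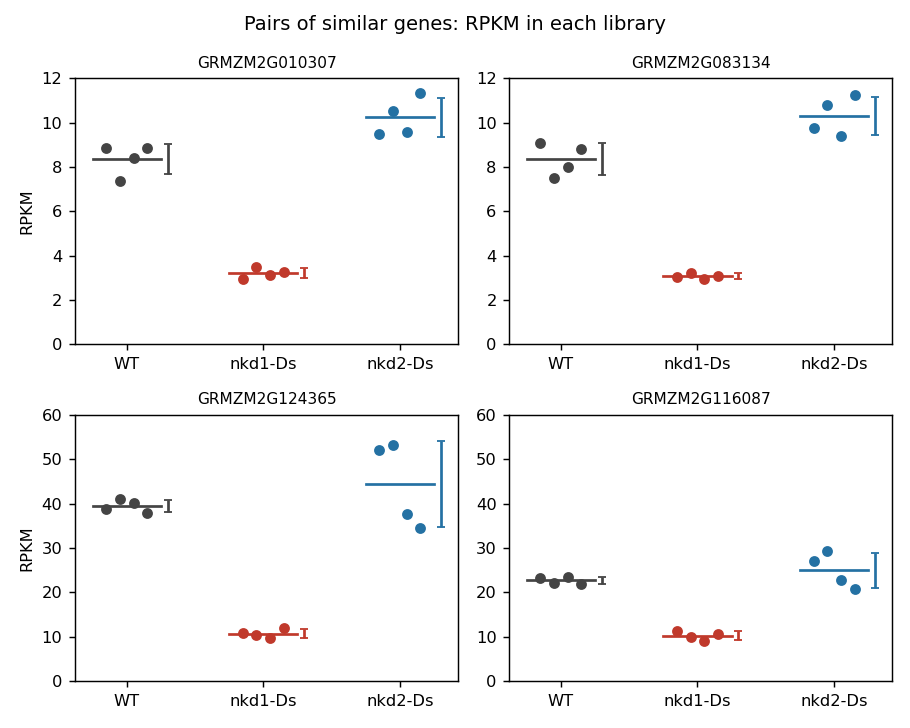
RPKM in each library for the pair GRMZM2G010307 and GRMZM2G083134 (upper panels) and for GRMZM2G124365 with GRMZM2G116087, which share RefSeq loci (lower panels). Points are libraries, lines are means and bars 1 SD either side (n = 4). The upper panels are nearly the same, and in the lower panels the same nkd2-Ds libraries are high.

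Gene length, recovered from the spacing of the RPKM values, set some of the 43 apart. Under 750 bases, a limit chosen after the lengths were seen, there were 14 of the 43 (32.6%), against 15.7% of the 12133 genes above the WT floor. The median lengths were alike, at 1728 and 1685 bases. Of the 14 short genes, 13 had no RefSeq match. Among unmatched genes, 61.9% of the chosen ones and 32.3% of those above the floor were under 750 bases. The share with a RefSeq match was 51.2% of the 43 and 57.3% of the 12133. Short genes carry fewer reads at a given RPKM: GRMZM5G848954, of 225 bases, rested on 20 to 35 reads in nkd1-Ds.

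RefSeq positions placed 21 of the 43 genes in the order of 12145 tested genes. None of the 21 was next to another, and the order of the others was not examined. The closest pair, GRMZM2G000397 and GRMZM2G147256, had 156 genes between them. GRMZM2G000397 was also the nearest to nkd1, with 60 genes between, and GRMZM2G043887 the nearest to nkd2, with 59. The genes directly beside the 21 were not used by the rule. Of these 42 neighbours, 19 (45.2%) were lower and 12 (28.6%) higher in nkd1-Ds than in WT by limma's adjusted p, against 29.2% and 26.5% of all genes tested. Over 5 genes on each side the counts were 65 lower and 80 higher of 210, or 31.0% and 38.1%. With equal total reads the direct neighbours split into 5 lower and 25 higher, and the wider set into 18 lower and 142 higher. On that scale 2099 of 27943 genes tested were lower and 16967 higher.

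The same shift was seen over all genes. The authors' values carry 1 factor per library. These factors were 34.3 to 40.5 megareads in nkd1-Ds against 27.3 to 31.1 in WT and 27.8 to 30.9 in nkd2-Ds. The recovered totals were 37.6 to 40.6 megareads in nkd1-Ds, 39.8 to 48.0 in WT and 35.3 to 47.4 in nkd2-Ds. With equal total reads the median log2 difference of all genes moved from -0.02 to 0.43 in nkd1-Ds and from -0.01 to 0.12 in nkd2-Ds, and the share of calls that were higher in nkd1-Ds went from 47.6% to 89.0%. On the equal-total scale the 43 genes kept a median of 47.0% of WT in nkd1-Ds, and 26 were under 50%. Every nkd1-Ds value was below every WT value for all 43. The nkd1-Ds limit of the rule leads to this, and no share over all genes was counted on this scale. It is therefore not a result about these genes. The rule was met by 12 genes on that scale, 10 of them among the 43. The others failed mainly by the nkd1-Ds limit (32 genes), with 8 outside the nkd2-Ds window and 2 under the WT floor, some failing more than 1. The 10 kept were GRMZM2G087103, GRMZM2G043887, GRMZM2G326235, GRMZM2G121878, GRMZM2G060079, GRMZM2G173483, GRMZM2G181264, GRMZM5G817886, GRMZM2G433557 and GRMZM5G856653.

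**Figure D5:**
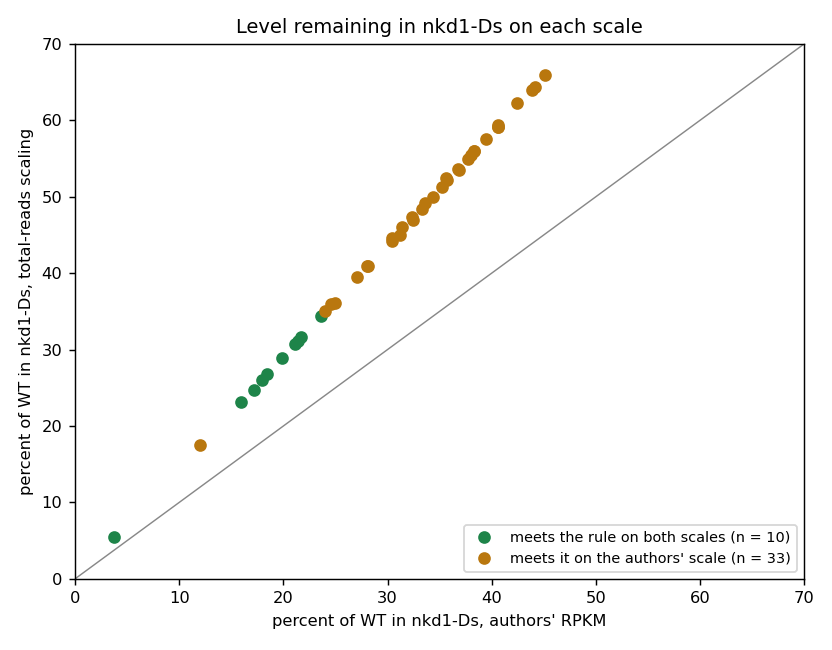
Mean level in nkd1-Ds as a percent of the WT mean for each of the 43 genes, with the authors' RPKM on the horizontal axis and values scaled to equal total reads on the vertical axis. Each point is 1 gene, and the line marks equal values. All points lie above the line, and the 10 genes that met the rule on both scales lie at or under 23.6% of WT on the authors' scale.

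The rule's limits fell within a continuous spread of values. Just inside the nkd1-Ds limit were GRMZM2G459710, whose highest nkd1-Ds value was 0.499 times its lowest WT value, and GRMZM2G590665 at 0.495 times. Just outside were GRMZM2G155242 at 0.502 and GRMZM2G154936 at 0.507. At the lower nkd2-Ds limit, GRMZM5G856653 and GRMZM2G173483 were inside with nkd2-Ds means 0.822 times WT, and GRMZM2G005938 and GRMZM2G015976 were outside at 0.7997 and 0.798. At the upper limit mlo2 and GRMZM2G083134 were inside at 1.24 and 1.23 times WT, and GRMZM2G304113 and GRMZM2G024104 outside at 1.26 and 1.35.

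Cell type markers were summed in the same libraries, since in whole endosperm fewer cells of a type and less RNA per cell cannot be told apart. The sum of 6 starchy endosperm genes (storage proteins, starch synthesis and o2) ran from 54320 to 63244 RPKM in WT, 39540 to 45372 in nkd1-Ds and 59454 to 85168 in nkd2-Ds, with 1 gene higher and 3 lower in nkd1-Ds and 2 higher and 1 lower in nkd2-Ds by limma's adjusted p. Over all genes tested the shares were 26.5% higher and 29.2% lower in nkd1-Ds and 25.5% in either direction in nkd2-Ds. With a replicate block the gene of a storage protein, gz27, was no longer called in nkd2-Ds (limma adjusted p = 0.0612 against 0.0183). The sum of 7 aleurone genes ran from 119 to 132 RPKM in WT, 78.0 to 109 in nkd1-Ds and 176 to 344 in nkd2-Ds, with 1 higher and 2 lower in nkd1-Ds and 4 higher in nkd2-Ds by limma's adjusted p. Both sums were below WT in all 4 nkd1-Ds libraries on the authors' scale, but single genes carried much of them. Genes named here for this were picked after their values were seen. The storage protein gene bz15 fell from 32097 ± 3914 RPKM in WT to 15648 ± 1012 in nkd1-Ds (limma adjusted p = 0.00195), while gz27 was at 107% of WT and o2, the gene of a transcription factor of storage protein genes, rose to 141% (limma adjusted p = 0.00117). In the aleurone list ole17, an oleosin gene, fell from 31.7 ± 1.57 to 5.30 ± 1.15 RPKM (limma adjusted p = 1.00e-06), while dek1 rose from 12.004 ± 0.435 to 16.5 ± 1.30 RPKM (limma adjusted p = 0.00109). With equal total reads the counts in nkd1-Ds became 3 higher and 1 lower for the starchy endosperm genes and 2 higher and 1 lower for the aleurone genes, and with quantile normalization 3 and 2 and 1 and 3. Over all genes, 16967 of 27943 tested were higher and 2099 lower with equal total reads. With quantile normalization 7294 of 26711 were higher and 7692 lower. The part of these marker genes in the levels of the 43 genes was not tested.

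Markers of other cell types were summed in the same way. The sum of 4 basal transfer layer genes varied widely within groups, from 50.2 to 245 RPKM in WT, 73.2 to 137 in nkd1-Ds and 19.8 to 225 in nkd2-Ds. Of these genes 1 was higher and 0 lower in nkd1-Ds, and 0 were called in nkd2-Ds. The one called was mrp1, the gene of a transcription factor of transfer cells, which rose from 1.85 ± 0.436 to 12.2 ± 1.11 RPKM (log2 difference 2.22 ± 0.12, limma adjusted p = 8.00e-09). The sum of 4 genes of the embryo-surrounding region ran from 0.507 to 4.61 RPKM in WT, 1.40 to 4.35 in nkd1-Ds and 0.199 to 14.7 in nkd2-Ds, where 1 of them, ae3, was listed at 0. The sum of 2 embryo genes was 7.64 to 11.0, 11.9 to 14.6 and 7.94 to 10.4 RPKM in the same order, and that of 3 pericarp or leaf genes 1.248 to 1.76, 1.99 to 2.46 and 1.54 to 2.13. The last 2 sums were higher in every nkd1-Ds library than in every WT library, and not all their genes rose. Of the embryo genes lg3 rose from 2.64 ± 1.02 to 6.71 ± 0.769 RPKM (limma adjusted p = 0.000117), while wox2a was at 6.66 ± 0.545 in WT and 6.4035 ± 0.780 in nkd1-Ds (limma adjusted p = 0.674), and was called higher with equal total reads (adjusted p = 0.0160). Of the pericarp or leaf genes 2 were tested: psah1 rose from 0.238 ± 0.0933 to 1.12 ± 0.205 RPKM (limma adjusted p = 2.25e-05) and psad1 fell from 1.15 ± 0.149 to 0.580 ± 0.157 RPKM (limma adjusted p = 0.00509). The call of psad1 was lost with equal total reads (adjusted p = 0.175). Their part was likewise not tested.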

How the data were processed

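Polyadenylated RNA of 12 samples was made into strand-specific libraries, per the labels' protocols. The submitters' processing notes list Cufflinks 2.2.1, TopHat2 2.1.1, featureCounts and FastQC. The sources used here give no genome build, no annotation and no strand setting, so overlapping or antisense genes may share reads. The deposited values are RPKM, judged from the values, with 1 factor per library set by the authors. Whole reads, gene lengths and factors were recovered from the spacing of the values (tolerance 0.02 reads) for 34307 of 34307 genes above 0. The remaining 41 were 0 in every library.

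Values were fitted as log2(RPKM + 1) in limma 3.58.1 under R 4.3.3, with the variance trended on the mean. All 12 samples entered, and 26706 genes passed the filter of a group mean of 1 RPKM or more. Tests were two-sided with Benjamini-Hochberg adjustment over all of these genes, and the steps were tested on simulated data. The simulation held few changed genes and no shift in scaling, unlike these data, so it does not bear on the effect of scaling. Fold changes on this scale understate low genes. No library was a duplicate of another of its group, since within groups the chi-square per gene was 8.04 to 85.9. Libraries of different groups were not compared in this way. The series calls the samples biological replicates without saying from which plants they came, so p-values measure the spread between these samples. Alternatives were equal total reads, quantile normalization, other pseudocounts, no filter, voom on recovered reads, the pairs of groups fitted alone, a replicate block, other limits in the rule and leaving out each library.

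The 43 genes and all lists were chosen with earlier results of these data known. Genes were named if they were among the 12 lowest by the ratio of highest nkd1-Ds to lowest WT value or the 12 highest in WT, had a symbol, or lay nearest a limit. Related genes had been planned by RefSeq description, which is not used here. They were matched by symbol with their group means in view, and all of those tested are named or counted. Genes named hk were left out because such names also mark histidine kinases. For markers, ae1 matched 2 loci and the starch gene was left out, and the alias esr1 was read as esr2. Some planned markers had no measured match and are not in the sums.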

Additional observations from a re-analysis of the deposited data

Results flagged for a closer look

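A library stood apart from the other 3 of its group in 8 of 180 groups examined, those of the 43 genes, nkd1, nkd2 and the 15 related genes, and chance gives about 1 in 20. The measure is the gap to the nearest library divided by the range of the group, held against Dixon's limit for 4 libraries. Among the 43 genes, GRMZM2G145651 was at 6.62 RPKM in WT replicate 2 against 5.45 to 5.6 in the others (0.871). GRMZM2G375504 was at 66.7 RPKM in WT replicate 4 against 60.7 to 61.5 (0.867). GRMZM2G479110 was at 2.21 RPKM in nkd1-Ds replicate 3 against 2.52 to 2.56 (0.873).

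Among related genes, mlo4 was at 2.001 RPKM in nkd2-Ds replicate 1 against 3.40 to 3.63 (0.859). The others were low genes outside the fit. The invertase gene ivr2 was at 0.0950 RPKM in WT replicate 1 against 0.0109 to 0.0124 (0.982), and mlo5 was listed at 0 in WT replicate 3 against 0.0150 to 0.0164 RPKM (0.916). The gene mlo7 was at 0.618 RPKM in WT replicate 4 against 0.366 to 0.405 (0.845), and at 0.742 in nkd2-Ds replicate 1 against 0.366 to 0.409 (0.884).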

How the results depend on the processing

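Equal total reads left 12 genes by the rule, 10 of them among the 43. A WT floor of 2 RPKM gave 88 and of 10 RPKM 19. An nkd1-Ds limit of 0.33 gave 13 and of 0.67 gave 212. An nkd2-Ds window of 0.67 to 1.5 gave 82 and of 0.9 to 1.1 gave 24. Quantile normalization gave 46, with all 43 among them. Leaving out each library in turn gave 40 to 55 genes, and 35 of the 43 met the rule in all 12 cases. The others, each lost in at least 1 case, were GRMZM2G010307, GRMZM2G021973, GRMZM2G083134, GRMZM2G173483, GRMZM2G181264, GRMZM2G590665, GRMZM5G856653 and mlo2. The WT floor and the nkd1-Ds limit use the lowest WT and the highest nkd1-Ds value. Leaving out a library could therefore not make any of the 43 fail them. These cases bear only on the nkd2-Ds window, and not on how stable the low nkd1-Ds levels were. The counts of genes called stayed within 1.5 times under every alternative: leaving out a library gave 13646 to 15073 for nkd1-Ds with WT (14877 with all), 5340 to 6979 for nkd2-Ds with WT (6823) and 9684 to 11045 for nkd2-Ds with nkd1-Ds (11157). The share of calls that were higher with equal total reads was 72.2% for nkd2-Ds with WT, against 46.9%, and 10.3% for nkd2-Ds with nkd1-Ds, against 51.6%. Voom on recovered reads moved these shares likewise, to 88.7% for nkd1-Ds with WT and to 72.0% and 9.87% for the others. With equal total reads, sucrose and hexose genes in nkd1-Ds split into 1 higher and 2 lower, 1 was lower in nkd2-Ds, and 0 MLO genes were lower in nkd1-Ds. Neighbours split as 5 and 25 (1 on each side) and 18 and 142 (5 on each side). For these changes the cause was not tested beyond the shift in the median of all genes. Same-numbered libraries did not deviate together (correlations -0.28 to 0.12 over 12 pairs, 2 of 12 closest to their own number). This does not settle whether the numbers pair the samples, as the sources used here do not name the plants. A fit with a replicate block called 14282, 6039 and 10365 genes, 1 sucrose gene as lower in nkd2-Ds, 1 MLO gene as higher in nkd1-Ds and 1 starchy endosperm gene as higher in nkd2-Ds, and changed no other count given here for these comparisons by over 1.5 times. Quantile normalization kept 2 sucrose and hexose calls as lower in nkd2-Ds, with hex2 in place of sus1. Shares of promoters with a motif were planned and were not run, because no sequence was used here. Depth limits genes with few reads in nkd1-Ds, such as GRMZM2G087103 with 12 to 57 reads a library.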
